A study of Mus musculus with 30 samples.

Results

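The cohesin regions of empty-vector NIH3T3 cells were compared between the SMC1, RAD21 and SMC3 subunits, using 1 deposited list of regions for each antibody. Regions on chromosomes 1 to 19 that overlapped or touched were joined across the 3 lists, and each of the 122913 merged regions was assigned to 1 of 7 combinations according to the subunits that called it. The merged regions came from 285025 deposited regions out of 624917 in the 8 lists of the series that were at hand. NIH3T3 is an immortalised line of mouse embryonic fibroblasts. The empty-vector cells stably carried a CpG-free plasmid expressing beta-galactosidase and no BORIS, and they were grown without synchronisation and fixed with formaldehyde before chromatin immunoprecipitation (ChIP-seq). For comparison, 3 lists made with the same antibodies came from clone 2 of NIH3T3 cells that express BORIS (CTCFL), a relative of CTCF, from a CpG-free plasmid. A further list mapped the remodeller Snf2h in wild-type CH12, a mouse B lymphoma line that carries no vector. The whole series holds 30 samples with 1 sample per group, so no value has a replicate check, no test between libraries was made, and antibody, library and subunit cannot be told apart. Intervals are exact (Clopper-Pearson) 95% binomial intervals that cover counting error only, and neighbouring regions are not independent.

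Cohesin is a ring that encircles DNA. SMC1 and SMC3 are long coiled-coil ATPases that join at a hinge, and RAD21 is the kleisin that links their ATPase heads and closes the ring, so a complete complex holds all of them. In interphase cells cohesin extrudes chromatin loops and accumulates where it meets CTCF, and it also holds sister chromatids together after replication.

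RAD21 had the shortest list, with 82401 regions, against 98604 in the SMC3 list and 104020 in the SMC1 list. The SMC1, RAD21 and SMC3 lists covered 31.2, 23.5 and 29.0 Mb, with median widths of 237, 232 and 229 bp. A pileup, the number of fragments over the summit (the position of highest density in a region), was computed from the deposited fold and −log10 p. Its median was 20 with the SMC1 antibody and 21 with each of the others. The depth implied by the lowest background of each list was 7.76 fragments per kb in the RAD21 library, 8.52 in the SMC1 library and 8.79 in the SMC3 library. RAD21 was thus lowest both in depth and in number of regions, and the part of depth in the number of regions was not tested. The highest pileups were 232, 234 and 234, in each list exactly 2 times the narrowest width (116, 117 and 117 bp). Pileups within 90% of that ceiling occurred in 62 SMC1, 157 RAD21 and 169 SMC3 regions, whose heights cannot be ordered.

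The largest combination was the whole set of subunits. All 3 antibodies called 64891 regions, 52.8% (52.5 to 53.1) of the total. With summits clustered within 200 bp in place of merged regions the share was 49.0% (48.7 to 49.2), no longer a majority. A single subunit called 37480 regions (30.5%), and a pair called 20542 (16.7%). The combinations without RAD21 were the larger ones. SMC1 alone called 19408 regions (15.8%), SMC1 with SMC3 called 12886 (10.5%), and SMC3 alone called 12534 (10.2%). RAD21 alone called 5538 regions (4.51%), RAD21 with SMC3 called 4075 (3.32%), and SMC1 with RAD21 called 3581 (2.91%). RAD21 was the subunit least often called by itself in the lists as deposited, which differ in length. Of the 78085 merged regions with RAD21, 7.09% lacked both SMC subunits. Those lacking both other subunits were 13.3% of the 94386 with SMC3 and 19.3% of the 100766 with SMC1.

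**Figure D1:**
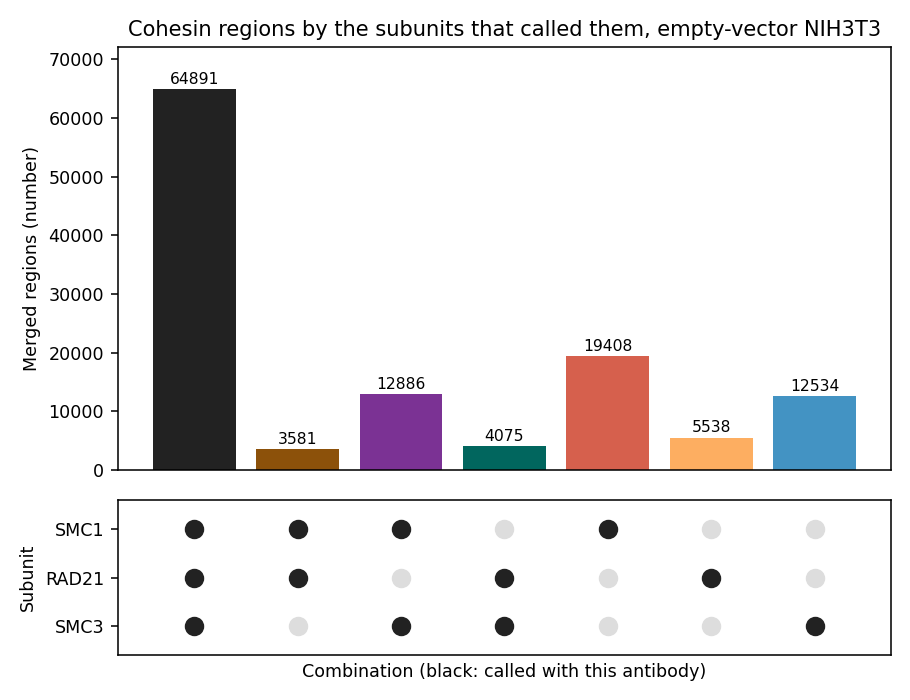
Number of merged regions in each of the 7 combinations of subunits (bars, with the number above), with black dots below marking the antibodies that called them. The region set called with all 3 antibodies (64891) was 3.34 times the next largest, SMC1 alone (19408).

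The shortage of combinations with RAD21 moved with the length of the lists. When each list was limited to its 82401 strongest regions by −log10 p, RAD21 alone held 8637 regions, SMC3 alone 9095 and SMC1 alone 10910. The pairs then held 4607 (SMC1 with RAD21), 6146 (SMC1 with SMC3) and 5917 (RAD21 with SMC3), and 59033 regions (56.6%) were called with all 3.

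Read list by list, RAD21 regions were the best covered by the other subunits. Of the RAD21 regions, 88.0% overlapped an SMC1 region and 88.1% an SMC3 region. Of the SMC3 regions, 82.9% overlapped an SMC1 region and 72.4% a RAD21 region. Of the SMC1 regions, 77.6% overlapped an SMC3 region and 67.9% a RAD21 region. With lists of equal length the 6 shares narrowed to between 78.8% (SMC1 by RAD21) and 82.8% (RAD21 by SMC3).

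Regions called with all 3 subunits ranked highest in each list. Regions were ranked by −log10 p within their own list, from percentile 0 to 100. In the strongest 10% of each list every region lay in a merged region called with all 3 antibodies, namely 10412 of 10412 SMC1 regions, 8241 of 8241 RAD21 regions and 9861 of 9861 SMC3 regions. Above the 80th percentile the exceptions were 14 SMC1 regions, 1 RAD21 region and 0 SMC3 regions. In the weakest 10% the lists differed. Of the weakest SMC1 regions, 18.8% lay in a region called with all 3 and 57.6% were called by SMC1 alone. For SMC3 these shares were 27.5% and 39.0%, and for RAD21 they were 58.4% and 19.9%. The weakest RAD21 regions thus fell mostly where both SMC subunits were called. The RAD21 list was also the shortest, so its weakest 10% does not match the same bin of the longer lists. The part of list length in this contrast was not tested.

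**Figure D2:**
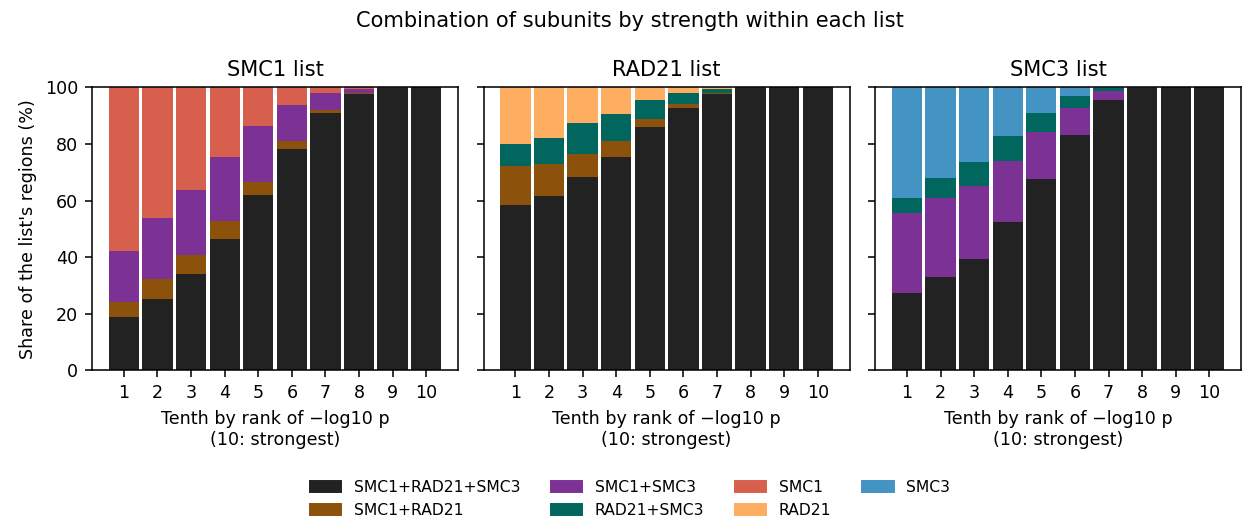
Share of each list's regions (y axis, %) that fell in each combination, in 10 bins by rank of −log10 p within the list (x axis, 10 the strongest). Bin 10 holds only regions called with all 3 antibodies in every list, while in bin 1 such regions make up 58.4% of the RAD21 list, 27.5% of the SMC3 list and 18.8% of the SMC1 list. The lists differ in length, with that of RAD21 the shortest.

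Where all 3 subunits were called, the median pileup was 29 fragments with the SMC1 and SMC3 antibodies and 25 with the RAD21 antibody. In pairs it was 14 and 12 (SMC1 with RAD21), 14 and 14 (SMC1 with SMC3), and 13 and 13 (RAD21 with SMC3). Where a subunit stood alone it was 12 for either SMC subunit and 11 for RAD21. The median percentile of regions standing alone was 17.6, 17.7 and 17.7, against 66.9, 57.7 and 65.0 for regions called with all 3. In the pairs it was 26.2 and 16.9 (SMC1 with RAD21), 30.3 and 24.1 (SMC1 with SMC3), and 26.7 and 30.6 (RAD21 with SMC3). The RAD21 regions paired with SMC1 thus ranked no higher than RAD21 alone. Regions of a single subunit were therefore mostly low in rank in the list that called them. Their median −log10 q was 4.75 (SMC1), 5.04 (RAD21) and 4.68 (SMC3), above the floor of the lists. The deposited lists reached down to a −log10 q of 1.32, 1.31 and 1.32, and signal below those values was not analysed here, so a subunit missing from a region was not called there rather than shown to be absent.

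In the lists as deposited, median width rose with the number of subunits. Merged regions had a median width of 372 bp (quartiles 262 to 533) with all 3 subunits. They measured 216 bp for SMC1 with RAD21, 228 bp for SMC1 with SMC3 and 180 bp for RAD21 with SMC3. SMC1 alone measured 154 bp, RAD21 alone 135 bp and SMC3 alone 136 bp. Joining lists widens a region by construction, so the deposited widths stand beside these. Before merging, the SMC1 regions measured 295 bp in the set called with all 3, against 154 bp alone. The RAD21 regions measured 262 bp against 135 bp, and the SMC3 regions 289 bp against 136 bp. With a −log10 q from 10 upward the order broke: SMC1 alone then measured 321 bp, RAD21 with SMC3 226 bp and SMC1 with SMC3 322 bp. The set called with all 3 took up 71.9% of the covered bases (28.7 Mb) and 2554 of the regions of at least 1 kb. The other combinations held 21 such regions, of which 8 were called by RAD21 alone and 8 by SMC1 with SMC3.

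Most regions called with all 3 subunits were simple: 58040 of them (89.4%) held exactly 1 region from each list. In the rest at least 1 antibody split the region. SMC1 had more than 1 region in 4.18% of the set, RAD21 in 5.67% and SMC3 in 5.47%. The most regions of one list inside a merged region were 13 for RAD21, 7 for SMC1 and 5 for SMC3. Among the widest 10% of the set (737 to 6893 bp) only 40.6% had 1 region per list.

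The widest regions were not the strongest. Each antibody's strongest region was ranked among the 64891, and the set was split into 10 equal bins of width. The median rank rose up to bin 8 (492 to 582 bp), where the percentiles were 75.0 (SMC1), 74.2 (RAD21) and 74.6 (SMC3). In the widest bin they were 65.8, 56.3 and 55.9. RAD21 most often had the lowest rank both there and in the whole set, while the shares of SMC1 and SMC3 changed. Over the whole set SMC1 had the lowest rank in 35.7% of regions, RAD21 in 37.8% and SMC3 in 26.6%, whereas in the widest bin the shares were 20.0%, 43.2% and 36.8%. The median pileups were 55 (SMC1), 62 (RAD21) and 66 (SMC3) in bin 8 and 48, 37 and 42 in the widest. The ranks in bin 8 differed by less than 1 percentile point between subunits, and the pileups come from libraries of unequal depth.

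The summits of the 3 subunits lay close together. In the 58040 regions with 1 region per list, the median distance was 16 bp between SMC1 and RAD21 (quartiles 7 to 32), 14 bp between SMC1 and SMC3 (6 to 30), and 15 bp between RAD21 and SMC3 (7 to 30). A distance of at most 50 bp was found in 86.0%, 87.2% and 86.8% of these regions. The outermost summits were a median of 25 bp apart, and 55 regions had a span above 500 bp. Where the summits fell on 3 different bases, the middle one was SMC1 in 33.6%, RAD21 in 31.1% and SMC3 in 35.3% of 53621 regions. No subunit took a fixed place between the others. A stretch covered by the regions of all 3 subunits existed in 99.4% of cases, with a median length of 213 bp.

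Summit agreement tightened with strength. Over 10 bins of mean rank among these regions, the median distance fell from 37 to 8 bp between SMC1 and RAD21, from 35 to 7 bp between SMC1 and SMC3, and from 35.5 to 8 bp between RAD21 and SMC3. In the strongest bin 99.7%, 99.8% and 99.7% of the regions had the paired summits within 50 bp, against 61.5%, 63.2% and 62.6% in the weakest. In regions called with only a pair of subunits, which are mostly of low rank, the median summit distance was 33 bp for SMC1 with RAD21, 32 bp for SMC1 with SMC3 and 21 bp for RAD21 with SMC3. These are above the medians over all regions called with 3 subunits but not above those of its weakest bin (37, 35 and 35.5 bp). Pairs of RAD21 and SMC3 were also the narrowest of the pairs. Among merged regions of at most 250 bp the medians were 25, 24 and 20 bp for the pairs, against 17, 16 and 16 bp between the same subunits where all 3 were called.

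**Figure D3:**
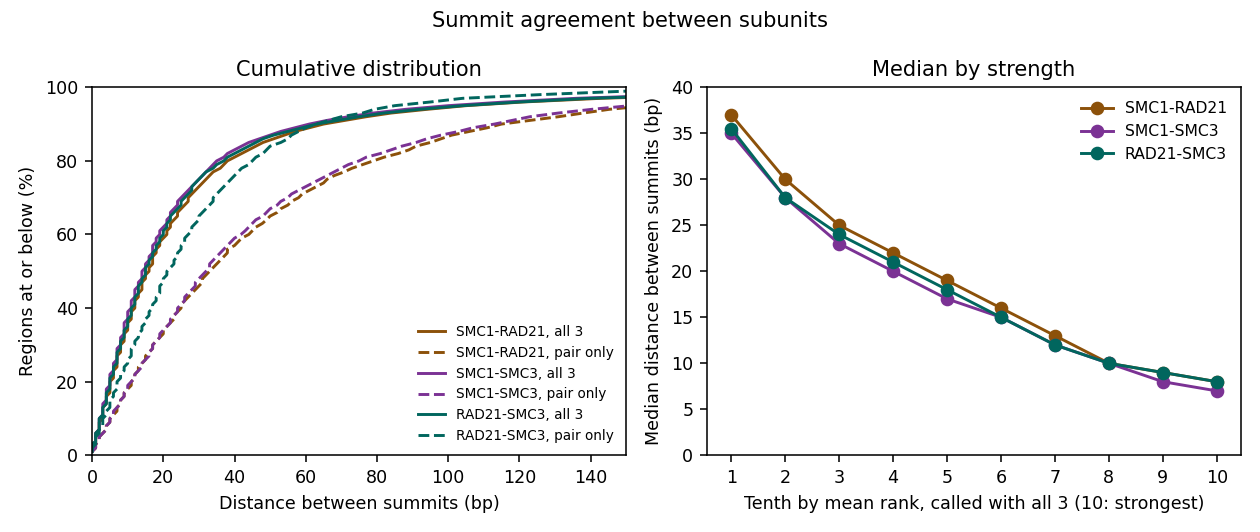
Left, the share of regions (y axis, %) with a distance between the summits of 2 subunits up to the value on the x axis (bp), for regions called with all 3 (solid) and with that pair only (dashed). Right, the median distance (bp) in regions called with all 3, in 10 bins of mean rank, which fell from 35 to 37 bp in the weakest bin to 7 to 8 bp in the strongest.

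Within the same 58040 regions the SMC3 signal was the highest. The SMC3 pileup exceeded the SMC1 pileup in 69.0% of regions and was lower in 27.1%. It exceeded the RAD21 pileup in 60.4% and was lower in 35.4%. SMC1 exceeded RAD21 in 47.9% and was lower in 48.3%. The SMC3 library also had the highest implied depth (8.79 fragments per kb), and its part in these shares was not tested. The order of the regions was similar between subunits: Spearman's rho of the ranks among these regions was 0.830 for SMC1 and RAD21, 0.884 for SMC1 and SMC3, and 0.894 for RAD21 and SMC3, as a description of regions that share their sequence and chromatin. Ranks more than 50 percentile points apart were found in 433 regions for SMC1 and RAD21, 191 for SMC1 and SMC3, and 60 for RAD21 and SMC3.

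Cohesin regions lay close together. The median gap between neighbouring merged regions was 6002 bp, and between neighbouring regions called with all 3 it was 12847 bp. Regions called with all 3 had the next region of that kind at a median of 5589 bp, edge to edge. In the lists as deposited, regions without RAD21 lay nearest to this set: the median distance was 4316 bp for SMC3 alone, 4356 bp for SMC1 with SMC3 and 4710 bp for SMC1 alone. Regions with RAD21 lay farther away, at 6392 bp for SMC1 with RAD21, 7457 bp for RAD21 with SMC3 and 7633 bp for RAD21 alone. With a −log10 q from 10 upward the distances were longer and the order partly turned, with SMC3 alone at 10262 bp, SMC1 alone at 9764 bp, SMC1 with SMC3 at 8499 bp and the full set at 10209 bp. The combinations with RAD21 were then at 11868 bp (SMC1 with RAD21), 13747 bp (RAD21 with SMC3) and 14684 bp (RAD21 alone). A region called with all 3 stood within 1 kb of 26.3% (25.5 to 27.1) of the regions of SMC3 alone, and of 17.8% (16.8 to 18.8) of those of RAD21 alone. Of the regions of RAD21 alone, 93.7% had one within 100 kb, against 98.6% for SMC1 alone and 98.2% for SMC3 alone.

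Single-subunit regions near a region called with all 3 were weaker than distant ones. Within 1 kb the median percentile in the list was 14.7 for SMC1 alone, 11.4 for RAD21 alone and 12.5 for SMC3 alone, and beyond 10 kb it was 18.0, 18.1 and 20.0. Seen from the other side, 12632 regions called with all 3 (19.5%) had a region of another combination within 1 kb. These had a median width of 469 bp and a median of 39.0 for the mean rank within the set. The 26457 regions (40.8%) with no other combination within 10 kb measured 333 bp at a mean rank of 52.2.

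The sparse parts of the genome had a different mix. In windows of 1 Mb with a region, the median number of merged regions was 43. In the sparsest 25% of windows (at most 16 regions) RAD21 alone made up 12.5% (11.5 to 13.6) of the regions, against 3.57% (3.43 to 3.72) in the densest 25% (at least 78). In number these were 508 of 4063 merged regions in the sparse windows and 2397 of 67114 in the dense ones. The windows were classed by the same merged regions whose mix is given. RAD21 with SMC3 made up 6.74% against 2.96%. SMC1 with SMC3 went the other way, at 4.75% against 11.6%, as did SMC1 alone (10.6% against 15.9%) and SMC3 alone (6.94% against 11.1%). Regions called with all 3 made up 54.1% and 52.5%. With lists of equal length the contrast for RAD21 alone was 17.8% against 6.89%. For SMC1 with RAD21 the contrast of 4.43% (3.8 to 5.1) against 2.48% (2.4 to 2.6) was not kept, at 3.97% against 4.19%. The set called with all 3 began at 54.1% (52.5 to 55.6) against 52.5% (52.1 to 52.8), with overlapping intervals. It then stood at 53.5% against 56.8%.

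Background and height differed between these windows as well. The median background at the summit was 1.28, 1.16 and 1.32 fragments for SMC1, RAD21 and SMC3 in the sparse windows and 2.13, 1.94 and 2.20 in the dense ones. In regions called with all 3 the median pileup of the RAD21 antibody was 28 in sparse and 25 in dense windows. That of SMC1 was 23 in sparse and 30 in dense windows, and that of SMC3 was 28 and 30. RAD21 signal relative to SMC1 was thus higher in the sparse windows even where all 3 subunits were called, and the part of background in the mix of combinations was not tested. Regions of RAD21 alone were also followed by another of their kind more often, in 8.71% of cases, than regions called with all 3 were followed by RAD21 alone (4.48%). The same direction held for SMC1 alone (18.6% against 15.2%), for SMC3 alone (11.9% against 10.4%) and for each of the pairs.

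**Figure D4:**
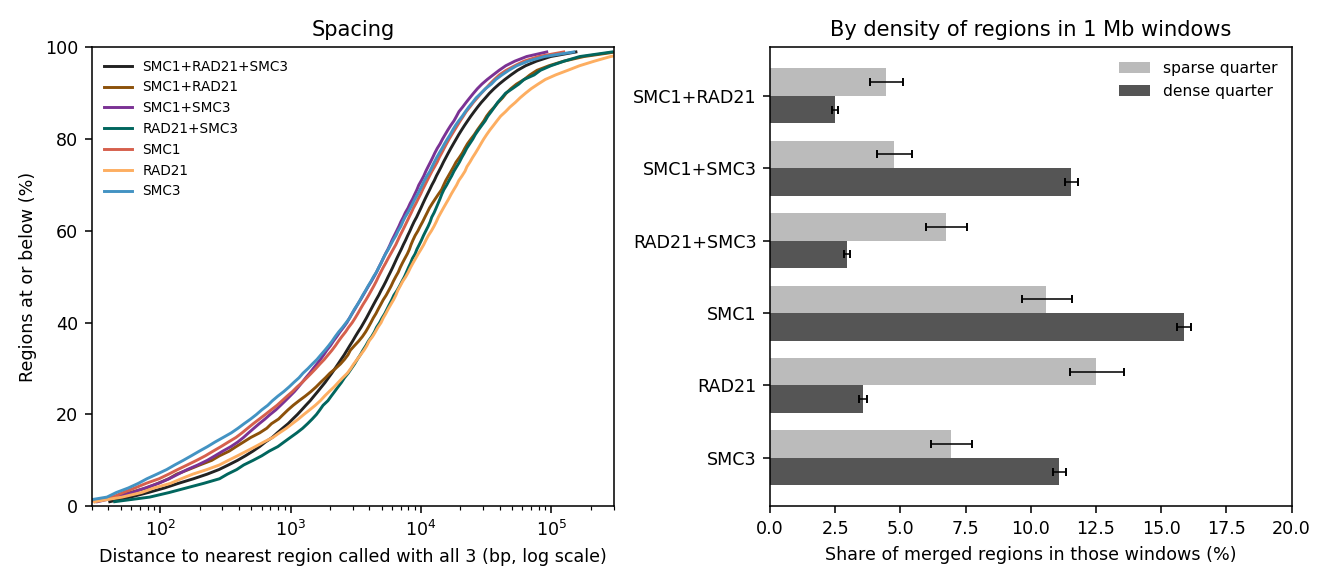
Left, the share of regions of each combination (y axis, %) within a given edge-to-edge distance (bp, log scale) of the nearest other region called with all 3 antibodies. Right, the share of each smaller combination among the merged regions of the sparsest and densest 25% of 1 Mb windows with 95% counting intervals, in which RAD21 alone fell from 12.5% to 3.57% and SMC1 with SMC3 rose from 4.75% to 11.6%.

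Across chromosomes the smallest combinations varied most in relative terms. They also held the fewest regions, so relative counting error is largest for them, and its part in this variation was not tested. SMC1 with RAD21 ranged from 2.43% on chromosome 15 to 3.84% on chromosome 13, and RAD21 with SMC3 from 2.63% on chromosome 19 to 3.96% on chromosome 8. The share called with all 3 ranged from 50.1% on chromosome 13 to 55.3% on chromosome 17. RAD21 alone ranged from 4.02% on chromosome 15 to 5.61% on chromosome 12, and SMC1 alone from 14.7% on chromosome 5 to 17.9% on chromosome 13. The densest window, chr19:5000001-6000000 (build mm9, as for all positions given), held 252 merged regions, of which 136 were called with all 3.

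The BORIS lists, which took no part in forming the combinations, called the regions with all 3 subunits again far more often than the rest. Over all 122913 merged regions, 65.9% were overlapped by the BORIS SMC1 list, 56.3% by the BORIS RAD21 list and 67.7% by the BORIS SMC3 list. For regions called with all 3 these shares were 89.0%, 85.0% and 91.9%, and 3.65% were in none of the BORIS lists. For single-subunit regions the list of the same subunit overlapped 35.3% (SMC1 alone), 28.4% (RAD21 alone) and 41.0% (SMC3 alone), all below the share over all regions, and 54.4%, 54.2% and 49.7% were in none. The BORIS cells express another protein and are not replicates, so a difference between the cells and a signal under the threshold cannot be told apart.

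The overlap of the smaller combinations with the BORIS lists is read beside the shares over all regions (65.9%, 56.3% and 67.7% for SMC1, RAD21 and SMC3). Regions of SMC1 with SMC3 were overlapped by the BORIS SMC1 list in 60.6% and the SMC3 list in 58.3%, and by the RAD21 list in 32.4%. Regions of RAD21 with SMC3 were overlapped by the RAD21 list in 50.4%, the SMC3 list in 59.9% and the SMC1 list in 42.2%. For SMC1 with RAD21 the SMC3 list overlapped 50.8%, as many within counting error as the SMC1 list (51.4%), and the RAD21 list 38.5%. Regions of SMC1 alone were overlapped by the SMC1 list in 35.3%, the SMC3 list in 25.8% and the RAD21 list in 11.9%. RAD21 alone was overlapped by the SMC3 list in 29.2%, the RAD21 list in 28.4% and the SMC1 list in 20.4%. Relative to the share over all regions, the RAD21 list was the highest for RAD21 alone. Regions of SMC3 alone were overlapped by the SMC3 list in 41.0%, the SMC1 list in 31.2% and the RAD21 list in 20.2%. The lengths of the BORIS lists are not given here, and their part in these shares was not tested.

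At similar rank, regions called with all 3 were overlapped more often than regions of a single subunit, but by less than over all ranks. The order between pairs was not always kept. Between the 20th and 40th percentile of the SMC1 list, the BORIS SMC1 list overlapped 68.7% (67.6 to 69.7) of the regions called with all 3. It overlapped 57.2% of those of SMC1 with SMC3, 49.9% of those of SMC1 with RAD21 and 39.9% (38.7 to 41.1) of those of SMC1 alone. In the same range of the RAD21 list the BORIS RAD21 list overlapped 67.2% with all 3, 49.2% of RAD21 with SMC3, 41.7% of SMC1 with RAD21 and 34.0% of RAD21 alone. For SMC3 the shares were 78.1% with all 3, 60.4% for SMC1 with SMC3, 60.6% for RAD21 with SMC3 and 48.9% alone. Within this range the median percentile was 31.7 for SMC1 regions called with all 3 and 28.2 for SMC1 alone, so the ranks were close but not equal. Merged regions called with all 3 were also wider. Within 50 bp on either side of the strongest summit the shares in this range, with all 3 and alone, were 66.5% and 38.6% (SMC1), 63.6% and 33.4% (RAD21), and 74.5% and 48.0% (SMC3). Below the 20th percentile the whole regions gave 57.8% and 26.2% (SMC1), 51.1% and 19.9% (RAD21), and 67.0% and 32.1% (SMC3). Between the 40th and 60th percentile the shares were 82.0% with all 3 and 61.9% alone for SMC1, 84.7% and 53.9% for RAD21, and 87.8% and 62.8% for SMC3. For the pairs there, the SMC1 list gave 72.7% (SMC1 with SMC3) and 66.7% (SMC1 with RAD21). The RAD21 list gave 67.5% (SMC1 with RAD21) and 66.5% (RAD21 with SMC3), and the SMC3 list 74.4% (SMC1 with SMC3) and 69.0% (RAD21 with SMC3).

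**Figure D5:**
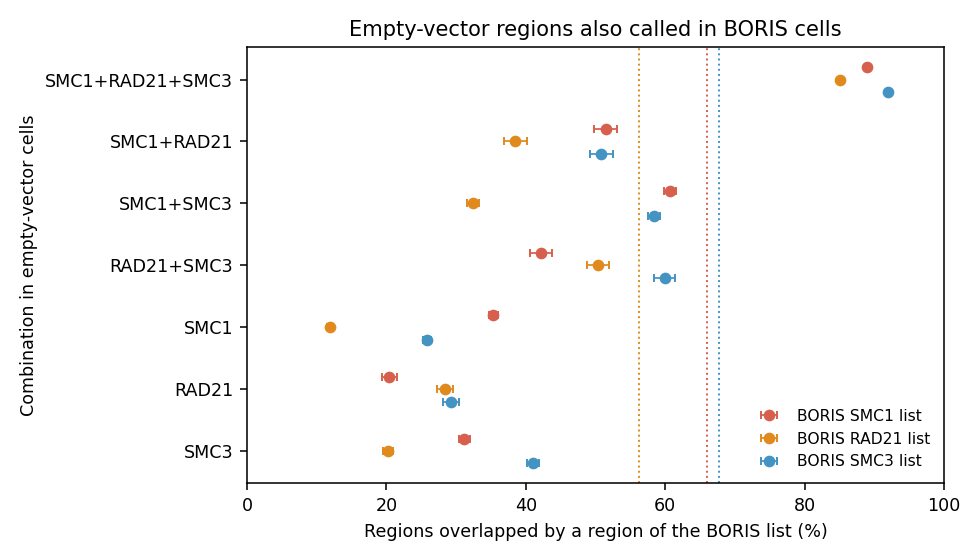
Share of the empty-vector regions of each combination (y axis) overlapped by a region of each list from BORIS cells (x axis, %), with 95% counting intervals as bars. Dotted lines give the share over all merged regions (65.9% for SMC1, 56.3% for RAD21, 67.7% for SMC3). The points of regions called with all 3 antibodies lie above the line of their list, and the points of the other 6 combinations lie below it.

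In another cell type the set called with all 3 again stood out from the rest. A Snf2h region of wild-type CH12 overlapped 4.54% of all merged regions and 6.88% (6.69 to 7.08) of those called with all 3. The other combinations lay between 1.32% (SMC3 alone) and 2.63% (SMC1 with SMC3). Merged regions of the full set were also wider, and within 50 bp on either side of the strongest summit, a window of the same width for each region, the shares were 5.60% for the full set and 1.23% to 2.02% for the others.

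Individual regions show the range. The region whose lowest percentile over the 3 lists was the highest, chr1:182198595-182199380, had pileups of 210 (SMC1), 219 (RAD21) and 223 (SMC3) over backgrounds of 2.13, 1.94 and 2.20, with its summits 3 bp apart. The region at chr19:43698335-43699018 had pileups of 206, 196 and 223 and summits 8 bp apart. A region on chromosome 18 had pileups of 220, 220 and 228 and summits 13 bp apart. These regions were 786, 684 and 746 bp wide, above the median of 372 bp, and the BORIS cells had them in every list. The pileups of the chromosome 1 and chromosome 18 regions lie within 90% of the ceiling, as does the SMC3 pileup of the chromosome 19 region. The order of these regions by height therefore carries no meaning. The widest region, chr9:3020422-3027314 (6893 bp), reached 232, 234 and 234 over backgrounds of 98.8, 90.7 and 103 fragments. This region had folds of 2.34, 2.56 and 2.26, as limited by the ceiling. Its neighbour chr9:3013658-3019509 held the longest span between summits (1459 bp) at the same ceiling. The median backgrounds of the lists were 1.90, 1.71 and 1.94, and at the ceiling the heights and summits of these 2 regions cannot be ordered between subunits.

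Among the pairs, the top-ranked region of SMC1 with SMC3, chr12:110234431-110234726, had a pileup of 37 with both antibodies, no RAD21 region within 1 kb, and no region in any BORIS list. The next, chr6:51434843-51435072 (pileups 30 and 29) and chr3:87224660-87224913 (28 and 29), were called with all 3 antibodies in BORIS cells. For RAD21 with SMC3 the first was chr2:152983129-152983327, with 33 RAD21 and 25 SMC3 fragments, followed by chr12:77093315-77093513 (30 and 27) and chr8:12629161-12629386 (30 and 27). The first and second of these were called with all 3 antibodies in BORIS cells and the third with none. For SMC1 with RAD21 they were chr11:83086072-83086294 (24 and 28), chr9:90211256-90211521 (19 and 20) and chr17:89008379-89008554 (21 and 21). The first 2 were called with all 3 antibodies in BORIS cells, and the last with RAD21 only. At 6 of these 9 regions the antibody that had missed the region in empty-vector cells called it in BORIS cells. Over the whole pairs the missing antibody's BORIS list overlapped 32.4% (SMC1 with SMC3), 42.2% (RAD21 with SMC3) and 50.8% (SMC1 with RAD21), and over all merged regions 56.3%, 65.9% and 67.7%, so 6 of 9 is near the share over all regions.

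The strongest regions of SMC1 alone and RAD21 alone were wide. For SMC1 they were chr11:107645447-107646715 (1269 bp, pileup 54), chr17:24135189-24135812 (624 bp, 52) and chr2:30775703-30776078 (376 bp, 43). For RAD21 they were chr17:29237721-29238613 (893 bp, 66), chr16:13824842-13825658 (817 bp, 61) and chr15:82060305-82061811 (1507 bp, 41). Each was several times the median width of its combination (154 bp for SMC1 alone, 135 bp for RAD21 alone) except the last SMC1 region. The strongest regions of SMC3 alone were chr11:114661162-114661335 (174 bp, pileup 33), chr2:18822370-18822577 (208 bp, 25) and chr7:28950547-28950751 (205 bp, 27), against a median of 136 bp and an upper quartile of 162 bp for that combination. All these single-subunit regions were called again with the same antibody in BORIS cells, where the lists overlapped 65.9% (SMC1), 56.3% (RAD21) and 67.7% (SMC3) of all merged regions. The first RAD21 region and the first and second SMC3 regions were called there with all 3 antibodies.

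Wide single-subunit regions were then counted, a set chosen after these values were seen. Of the regions of at least 500 bp, 111 were called by SMC1 alone, 42 by RAD21 alone and 19 by SMC3 alone, under 1% of each combination. Of the 42 wide RAD21 regions, 78.6% (63.2 to 89.7) were overlapped by the BORIS RAD21 list, 9.52% (2.66 to 22.6) by the SMC1 list and 7.14% (1.50 to 19.5) by the SMC3 list. The narrower regions of RAD21 alone were overlapped in 28.0%, 20.5% and 29.4%. The SMC3 share was thus lower in the wide regions beyond counting error, and the SMC1 share was not. Of the 111 wide SMC1 regions, 84.7% (76.6 to 90.8) were overlapped by the BORIS SMC1 list, 32.4% by the RAD21 list and 51.4% by the SMC3 list, against 35.0%, 11.7% and 25.7% of the narrower ones, so all 3 shares were higher in the wide regions. Of the 19 wide SMC3 regions, 68.4% (43.4 to 87.4) were overlapped by the SMC3 list, 36.8% by the SMC1 list and 10.5% by the RAD21 list, against 40.9%, 31.2% and 20.2% of the narrower ones. The share of wide SMC3 regions with the SMC3 list was near that over all merged regions (67.7%). The wide regions also ranked higher than the narrower ones, at median percentiles of 50.7 against 17.3 (SMC1), 49.2 against 17.7 (RAD21) and 36.2 against 17.7 (SMC3). Between the 40th and 60th percentile the list of the same subunit overlapped 61.9% of all regions of SMC1 alone and 53.9% of those of RAD21 alone. The parts of width and rank in these shares were not tested.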

How the data were processed

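The 3 empty-vector libraries were 1 each for SMC1, RAD21 and SMC3, grouped by the labels. Per the submitters' processing notes, the tools included Bowtie, Bowtie2, SAMtools, MACS2 and deepTools 3.5.0, and the builds mm9 and hg19, without roles, versions for all, or order; the control was not given in the sources used here. Coordinates reach 197182423 on chromosome 1, past the last gene of GRCm38 there (195291439). The authors deposited for each region a score, a fold (a ratio of pileup to background), −log10 p and −log10 q values and a summit offset, in the narrowPeak layout and without a header. No genome of that build was at hand, so regions were not assigned to genes, no sequence is given, and the planned CTCF motif count was not run.

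Chromosomes 1 to 19 were kept. Overlapping or touching regions were merged, and summit distances used merged regions with 1 region per list. Fold and −log10 p were solved for a pileup under a Poisson tail, which was whole in 100% of regions within 0.001 in −log10 p. Depth was the lowest background divided by the narrowest region. Ranks were percentiles of −log10 p within a list. Regions named were the 3 of each combination with the highest value of their lowest percentile, at most 3 kb wide, with 1 region per list and no absent subunit within 1 kb, plus the widest region of each combination and the longest span of summits; not every one is printed. Merging and pileup recovery were tested on simulated data. Python 3.11.15, numpy 2.4.6, pandas 2.3.3, scipy 1.17.1 and matplotlib 3.10.9 were used. The members, the rules and the lists were chosen with earlier results of these data known. Alternatives were a stricter threshold (−log10 q from 10 upward), lists of equal length, summits clustered within 200 bp, gaps of up to 1 kb, an overlap of 50% of the shorter region, inclusion of X and Y, and each subunit left out.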

Additional observations from a re-analysis of the deposited data

How the results depend on the processing

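Of 132 alternative values for the main results, 43 stayed within their interval or within 1.5 times and 89 moved, and the causes were not tested beyond what each alternative does by construction. At a stricter threshold (−log10 q from 10 upward) there were 39164 regions with all 3, 1482 for SMC1 with RAD21, 5691 for SMC1 with SMC3, 9058 for SMC1 alone, 2991 for RAD21 alone and 5066 for SMC3 alone. With equal numbers they were 6146 for SMC1 with SMC3, 10910 for SMC1 alone and 8637 for RAD21 alone. Joining across 1 kb gave 11408 for SMC1 alone and 7598 for SMC3 alone. The share called with all 3 was 59.0% at the stricter q, 56.6% with equal numbers, 49.0% with summits clustered within 200 bp, 60.5% across 1 kb and 51.2% with an overlap of 50%. The share called with every remaining subunit was 65.3% without SMC1, 66.0% without RAD21 and 61.5% without SMC3. For the ordered pairs (SMC1 by RAD21, SMC1 by SMC3, RAD21 by SMC1, RAD21 by SMC3, SMC3 by SMC1, SMC3 by RAD21) the shares were 73.3%, 81.1%, 87.5%, 90.4%, 85.0% and 79.5% at the stricter q. With equal numbers they were 78.8%, 81.0%, 81.8%, 82.8%, 81.6% and 80.7%, and with an overlap of 50% they were 66.7%, 76.1%, 86.6%, 86.6%, 81.2% and 71.1%.

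At the stricter q the median widths were 414 bp (all 3), 354.5 bp (SMC1 with RAD21), 322 bp (SMC1 with SMC3), 226 bp (RAD21 with SMC3), 321 bp (SMC1 alone), 186 bp (RAD21 alone) and 187 bp (SMC3 alone). Before merging they were 295 bp (SMC1), 262 bp (RAD21) and 289 bp (SMC3) for all 3, 177 and 151 bp for SMC1 with RAD21, 182 and 165 bp for SMC1 with SMC3, and 147 and 150 bp for RAD21 with SMC3. Summit distances at the stricter q were 12 bp (SMC1 to RAD21), 11 bp (SMC1 to SMC3) and 11 bp (RAD21 to SMC3), and with the strongest summit of each list 17 bp (SMC1 to RAD21) and 16 bp (RAD21 to SMC3). Distances to the nearest region called with all 3 were, between midpoints, 6031 bp for all 3, 4727 bp for SMC1 with SMC3, 5050 bp for SMC1 alone and 4652 bp for SMC3 alone. At the stricter q they were 10209 bp for all 3, 11868 bp, 8499 bp and 13747 bp for the pairs in the same order, and 9764 bp, 14684 bp and 10262 bp for SMC1, RAD21 and SMC3 alone.

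Shares overlapped by the BORIS list of the same subunit at the stricter q were 84.9% (SMC1) and 90.8% (SMC3) for all 3, 46.5% (SMC1) and 33.2% (RAD21) for SMC1 with RAD21, 53.1% (SMC1) and 53.5% (SMC3) for SMC1 with SMC3, 48.4% (RAD21) and 51.7% (SMC3) for RAD21 with SMC3, and 36.3%, 30.7% and 39.1% for SMC1, RAD21 and SMC3 alone. Within 50 bp on either side of the strongest summit, an alternative chosen after seeing the data, they were 88.3%, 83.5% and 90.9% for all 3, 49.3% and 36.1% for SMC1 with RAD21, 58.5% and 55.6% for SMC1 with SMC3, 33.9% for SMC1 alone and 39.9% for SMC3 alone. The equal-number and stricter-q shares by density of windows were also chosen after seeing the data.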
